A study of Mus musculus with 6 samples.

Results

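The 6 genes described here encode the core of polycomb repressive complex 2 (PRC2), and they were taken by name from a table of 37991 gene IDs, in which all 6 were found. They are Ezh2 and its paralog Ezh1, which carry the methyltransferase activity, Eed and Suz12, which the enzyme needs to be active, and the histone-binding proteins Rbbp4 and Rbbp7. All 6 were abundant enough to be among the 16420 genes tested. RNA-seq was done on mouse primordial germ cell-like cells (PGCLCs), a culture model of the newly specified germ line, on day 4 of their induction. Both groups derive from C57BL/6 embryonic stem cells with floxed Ezh2 alleles (Ezh2f/f) and CreERT2, a Cre recombinase that 4-hydroxytamoxifen switches on. The stem cells were kept in medium with LIF, CHIR99021 and an inhibitor named as PD0325091, turned into epiblast-like cells with bFGF, Activin A and KSR, and then grown as aggregates under BMP2, SCF, EGF and LIF. The 3 Ctrl libraries came from aggregates that received ethanol, the solvent, and the 3 Ezh2 KO libraries, labelled Ezh2-/-, from aggregates that received 4-hydroxytamoxifen in ethanol when aggregation began; fresh medium added midway held neither. Control cells therefore carry the recombinase and the floxed alleles but never met 4-hydroxytamoxifen, and these samples hold no group given the compound with Ezh2 intact. The sources used here do not give the promoter of CreERT2, the number of stem cell clones, the floxed exons or the gate by which dissociated aggregates were sorted. Whether the replicates were induced separately is not stated either, and p-values then cover only the spread among these 6 libraries, which may be technical.

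PRC2 methylates histone H3 at lysine 27 and so sets the mark H3K27me3, under which developmental genes are kept silent. EZH2 is the dominant enzyme of dividing cells and EZH1 the less active form that prevails in resting ones; EED reads the finished mark and stimulates the enzyme, SUZ12 is the scaffold that holds the parts together, and RBBP4 and RBBP7 bind the histone tail. The last pair also serve other complexes, among them NuRD, Sin3 and the chromatin assembly factor CAF-1. In the germ line, H3K27me3 is known for holding back differentiation and meiotic genes while DNA methylation is being erased.

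Promoter windows, from 250 bases before to 50 bases after the annotated start, were found for all 6 genes in RefSeq (build GRCm38.p6). Each was rich in CpG pairs, with 17 in Eed, 23 in Ezh1, 31 in Ezh2, 38 in Rbbp7, 39 in Rbbp4 and 41 in Suz12, against a median of 7 over the 32851 windows of the table. An E2F site, searched as TTTGGCGC or TTTCCCGC on both strands, was present in the windows of Ezh2 and Suz12 and in 1.56% of all windows. Both words contain a CpG pair, so that share, over windows mostly poorer in CpG, is not a matched background. E2F factors drive genes of the dividing cell. A CCAAT box, searched as CCAAT on both strands, was present in 5 of the 6 windows, all but that of Ezh1, and in 37.4% of all windows. The windows of Ezh2, the gene targeted by the recombinase, and of Suz12 and Ezh1, the 2 genes whose levels differed most between libraries of one group, are shown with E2F sites and CCAAT boxes in capitals. They lie at chr6:47594981-47595280 (Ezh2, minus strand), chr11:79992856-79993155 (Suz12, plus strand) and chr11:101226414-101226713 (Ezh1, minus strand). Such matches describe the sequence and do not show that a factor binds there.
Ezh2: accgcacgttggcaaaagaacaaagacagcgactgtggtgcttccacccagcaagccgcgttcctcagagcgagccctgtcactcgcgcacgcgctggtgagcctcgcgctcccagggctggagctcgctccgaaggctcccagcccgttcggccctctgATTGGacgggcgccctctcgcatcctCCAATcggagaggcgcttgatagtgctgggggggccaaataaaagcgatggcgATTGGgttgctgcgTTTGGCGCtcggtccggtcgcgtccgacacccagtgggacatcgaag
Suz12: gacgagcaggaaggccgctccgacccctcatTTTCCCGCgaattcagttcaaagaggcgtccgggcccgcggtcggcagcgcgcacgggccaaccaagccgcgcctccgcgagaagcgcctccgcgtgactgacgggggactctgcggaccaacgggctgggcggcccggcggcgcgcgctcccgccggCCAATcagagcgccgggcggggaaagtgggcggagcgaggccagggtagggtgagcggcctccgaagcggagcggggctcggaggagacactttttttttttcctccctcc
Ezh1: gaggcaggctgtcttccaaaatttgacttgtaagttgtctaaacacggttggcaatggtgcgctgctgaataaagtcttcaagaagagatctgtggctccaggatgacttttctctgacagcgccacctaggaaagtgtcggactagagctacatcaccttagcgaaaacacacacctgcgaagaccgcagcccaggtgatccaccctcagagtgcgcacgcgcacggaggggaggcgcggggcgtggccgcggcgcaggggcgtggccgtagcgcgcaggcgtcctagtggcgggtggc

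Total counts ran from 27072150 to 49382146 per library. Libraries differed in how counts depended on the GC content of transcripts. Relative to the mean of the 6 libraries, genes in the top quartile of GC content stood above those in the bottom quartile by 0.53 on the log2 scale in Ctrl replicate 1 and below them in Ezh2 KO replicate 2 (-0.69), with the other 4 libraries between -0.21 and 0.27. Of 11 germ cell markers, all were detected and 0 passed the test in edgeR (0 at an unadjusted p under 0.05). The log2 fold change, Ezh2 KO over Ctrl, was positive for 3 of the 11, with a median of -0.29 (-0.37 to -0.07 with single libraries left out). Their summed level was 1655 to 1849 CPM (the usual read count scaled for depth) in Ctrl and 1327 to 1746 CPM in Ezh2 KO. Nanog and Pou5f1 led this sum, with means of 514 and 363 CPM in Ctrl. Nanos3, Prdm1 and Itgb3 added little to it, with means of 8.99, 5.96 and 3.28 CPM in Ctrl. The most abundant marker listed for other cells was Pecam1, of the blood and endothelium list. It held 114.7 to 193.7 CPM in Ctrl and 112.0 to 193.5 CPM in Ezh2 KO. The other blood and endothelium markers, Cdh5 among them, summed to 6.41 to 10.7 CPM in Ctrl and 7.03 to 11.5 CPM in Ezh2 KO. Pecam1 alone therefore does not show that endothelial cells were present. Summed levels in Ctrl and then Ezh2 KO were 3.96 to 5.82 and 2.39 to 3.45 CPM for neuroectoderm (4 of 6 genes tested), 1.56 to 3.07 and 0.849 to 1.51 CPM for endoderm (3 of 6), and 5.59 to 8.21 and 2.39 to 5.24 CPM for fibroblasts (4 of 6). They were 9.09 to 12.0 and 5.41 to 10.2 CPM for mesoderm (5 of 8), whose marker Foxf1 was at 0 throughout, and 20.0 to 24.4 and 20.5 to 27.3 CPM for trophoblast (6 of 6). Epiblast markers (4 of 5), with Pou3f1 at 0 throughout, summed to 56.6 to 72.1 CPM in Ctrl and 82.2 to 105.5 CPM in Ezh2 KO. Of this sum Dnmt3b, a DNA methyltransferase gene singled out after its values were seen, made up 44.4 to 51.9 and 55.0 to 91.3 CPM, and without it the sums overlapped (11.9 to 24.5 and 14.2 to 27.3 CPM). The neuroectoderm, endoderm and fibroblast sums, of a few CPM each, were thus lower in Ezh2 KO without overlap, as were Ezh2 and 4.03% of all tested genes. The largest differences in means within these 3 lists, Ctrl first, were in Neurog1 (1.35 and 0.25 CPM), Gata6 (1.13 and 0.61 CPM) and Col1a1 (3.97 and 2.17 CPM). These genes were singled out after their values were seen. The epiblast sum was higher through Dnmt3b alone. The part of these marker sums in the values of the PRC2 genes was not tested.

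Ezh2 transcripts (ENSMUSG00000029687) were the only ones of the core whose groups did not overlap. Replicates 1 to 3 of Ctrl held 91.8, 78.1 and 95.3 CPM, from 4454, 2201 and 2693 reads. Ezh2 KO replicates 1 to 3 held 40.8, 67.1 and 70.0 CPM, from 1524, 1738 and 2835 reads. The 3 Ezh2 KO libraries were unequal, with replicate 1 far below the others, and counting error was at most 2.56% of any value. The same lack of overlap, lower in Ezh2 KO, was seen in 4.03% of all tested genes. Ctrl averaged 88.4 ± 9.09 CPM and Ezh2 KO 59.3 ± 16.1 CPM (SD, n = 3).

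The fold change of Ezh2 was thus modest, and it did not pass the test across all genes. The log2 fold change was -0.58 ± 0.23 (SE), with an unadjusted p of 0.0361 and an adjusted p of 0.976 by edgeR's quasi-likelihood test. By that unadjusted p Ezh2 ranked 311th of 16420 genes, and 1.25% of all genes were lower at an unadjusted p under 0.05. The test called 0% of genes after adjustment, with 459 at an unadjusted p under 0.05, and DESeq2 called 13 of all genes, none of them in the core. Across the alternatives, 18 in number, the adjusted p of Ezh2 ran from 0.387 to 1, and its unadjusted p was under 0.05 in 14. Blocking on replicate number moved the log2 fold change to -0.61 (unadjusted p = 0.0189 in edgeR, adjusted p = 0.481), where 3.12% of all genes were lower at an unadjusted p under 0.05. When Ezh2 KO replicate 1 was left out it was -0.37 (edgeR unadjusted p = 0.0798), which is 77.6% of Ctrl in place of 67.1%. The unadjusted p in edgeR was also above 0.05 without Ctrl replicate 1 (0.0696) and without Ctrl replicate 3 (0.0872), with a log2 fold change of -0.55 in each. The counts of Ezh2 cover the whole gene, including exons outside the deleted part. In bulk RNA fewer cells with an intact gene and fewer transcripts per cell cannot be told apart.

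**Figure D1:**
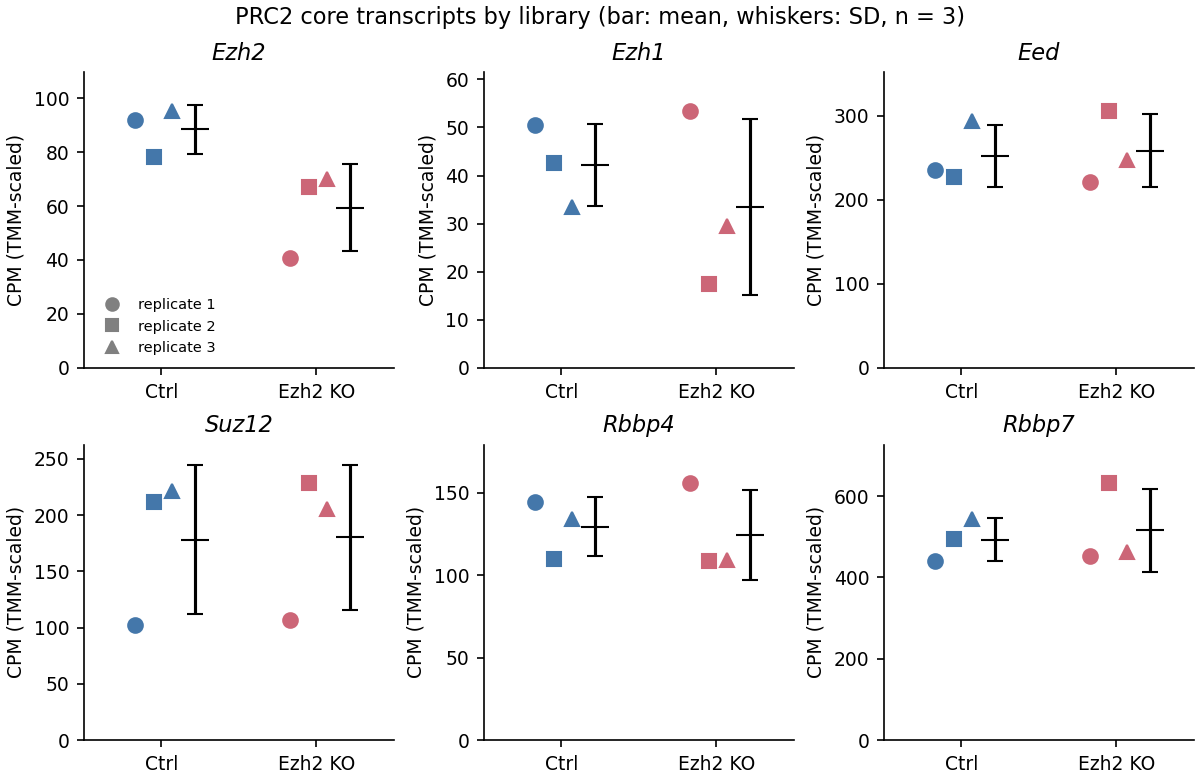
Level of each PRC2 core gene in each library, in TMM-scaled CPM on axes that start at 0; point shape gives the replicate number, the bar the mean and the whiskers the SD of 3 libraries. Ezh2 is the only gene without overlap of the groups, and Suz12 is at 102 and 107 CPM in the libraries numbered 1 and at 205 to 229 CPM in the others.

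Ezh1 (ENSMUSG00000006920), the other methyltransferase gene, was the scarcest of the 6 and spanned the widest range. Ctrl replicates 1 to 3 held 50.4, 42.5 and 33.5 CPM. Ezh2 KO replicates 1 to 3 held 53.5, 17.5 and 29.6 CPM. The groups overlapped: Ezh2 KO replicate 1 was the highest of the 6 libraries, and Ezh2 KO replicate 2 the lowest by a wide margin. Highest and lowest differed 3.06-fold. Ctrl averaged 42.2 ± 8.45 CPM and Ezh2 KO 33.5 ± 18.3 CPM (SD, n = 3), a log2 fold change of -0.33 with a 95% interval of -1.21 to 0.55. That interval reaches from 43.2% to 146% of Ctrl. The estimate moved with single Ezh2 KO libraries. It was -0.84 without Ezh2 KO replicate 1 (unadjusted p = 0.0246 and adjusted p = 0.553 in edgeR; adjusted p 0.553 to 1 among 18 alternatives), where 1389 of all tested genes had an unadjusted p under 0.05. It was -0.02 without Ezh2 KO replicate 2.

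Since Ezh1 and Ezh2 take the same place in the complex, their balance was computed within each library after dividing each level by the length of the gene's exons. The Ezh2 counts in Ezh2 KO may include transcripts that lack the deleted part. The balance there is therefore one of counted transcripts and not of active enzyme. Ezh1 made up 33.0%, 32.8% and 24.0% of the summed transcripts of the pair in Ctrl replicates 1 to 3. In Ezh2 KO replicates 1 to 3 it made up 54.1%, 19.0% and 27.5%. The Ezh2 KO libraries thus held both the highest and the lowest share, and Ezh1 exceeded Ezh2 in Ezh2 KO replicate 1 alone. The mean share was 30.0% ± 5.15 in Ctrl and 33.5% ± 18.3 in Ezh2 KO (SD, n = 3), a difference smaller than the spread within the Ezh2 KO group (exact two-sided permutation test, p = 0.9, adjusted p = 0.9 over 3 ratios; the smallest p that 3 against 3 allows is 0.1). With the length of the longest transcript in place of that of all exons, the share in Ezh2 KO replicate 1 was 46.5% and no library had more Ezh1 than Ezh2.

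The summed level of the 2 methyltransferase genes was 20.5, 17.4 and 18.8 CPM per kilobase in Ctrl replicates 1 to 3. It was 13.3, 12.4 and 14.5 CPM per kilobase in Ezh2 KO replicates 1 to 3. Each Ezh2 KO sum lay below each Ctrl sum, and the library with the least Ezh2 was the one with the most Ezh1. This sum was chosen after its parts were seen and is given as a description. It has the same limit as the share, since Ezh2 counts in Ezh2 KO may include transcripts that lack the deleted part.

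**Figure D2:**
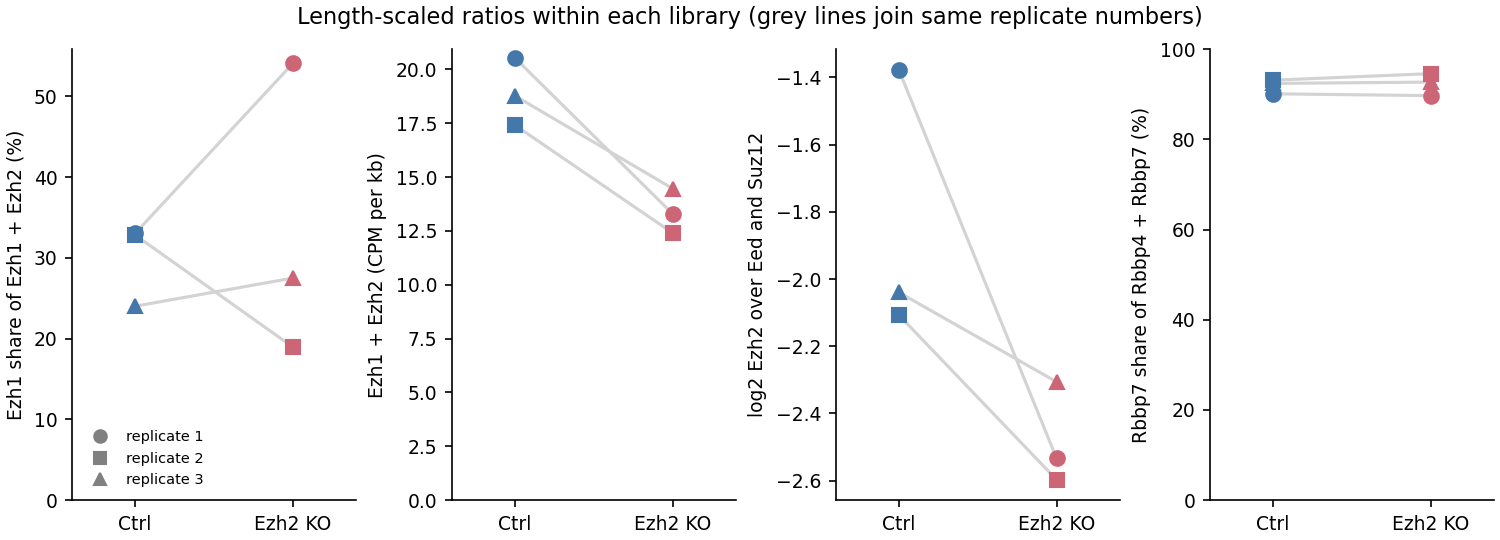
Ratios within each library from levels divided by exon length: the Ezh1 share of Ezh1 and Ezh2 in percent, their sum in CPM per kilobase, the log2 ratio of Ezh2 to the geometric mean of Eed and Suz12 (this axis does not start at 0), and the Rbbp7 share of Rbbp4 and Rbbp7 in percent. Grey lines join libraries of the same replicate number; the Ezh1 share goes from 33.0% to 54.1% in the pair numbered 1 and from 32.8% to 19.0% in the pair numbered 2.

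Eed (ENSMUSG00000030619), the subunit that reads the mark, had nearly equal levels in the 2 groups. Ctrl replicates 1 to 3 held 236, 227 and 294 CPM. Ezh2 KO replicates 1 to 3 held 221, 306 and 248 CPM. Both the lowest and the highest library belonged to Ezh2 KO, and the whole range was 1.38-fold. The log2 fold change was 0.03 with a 95% interval of -0.36 to 0.43, that is 77.8% to 135% of Ctrl.

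Suz12 (ENSMUSG00000017548), the scaffold, followed the replicate number rather than the group. It stood at 102, 211 and 221 CPM in Ctrl replicates 1 to 3. It stood at 107, 229 and 205 CPM in Ezh2 KO replicates 1 to 3. Libraries numbered 1 held about the same low level in both groups, and Ezh2 KO libraries stood at 92.9% to 108% of the same-numbered Ctrl library. The SD of log2 CPM was 0.61 within groups and 0.08 once the replicate number was taken into account. The first of these exceeds that of 93.2% of the 5247 genes of mean log2 CPM over 5, whose median was 0.22. The log2 fold change was 0.02, with a 95% interval of -0.80 to 0.83, and with the block of -0.32 to 0.36. The interval with the block spans 80.2% to 129% of Ctrl.

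The GC trend was most positive in the libraries numbered 1 (0.53 and 0.27), and its size at these genes was measured. Transcript GC content was 41.6% for Suz12, the lowest of the 6, and 51.2% for Ezh1, the highest. After the trend was removed from each library, Suz12 stood at 126, 208 and 204 CPM in Ctrl replicates 1 to 3 and at 114, 197 and 202 CPM in Ezh2 KO replicates 1 to 3. The gap between libraries numbered 1 and the rest was narrower but still present, and the SD within groups went from 0.61 to 0.44, while the median SD of abundant genes stayed at 0.22. Ezh1 after this removal stood at 48.3, 42.6 and 34.4 CPM in Ctrl and at 50.7, 18.8 and 29.8 CPM in Ezh2 KO, so Ezh2 KO replicate 2 was still lowest. Ezh2 kept its separation, with 77.4 to 106 CPM in Ctrl and 42.6 to 69.6 CPM in Ezh2 KO. What else sets the libraries numbered 1 apart in Suz12 was not tested.

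**Figure D3:**
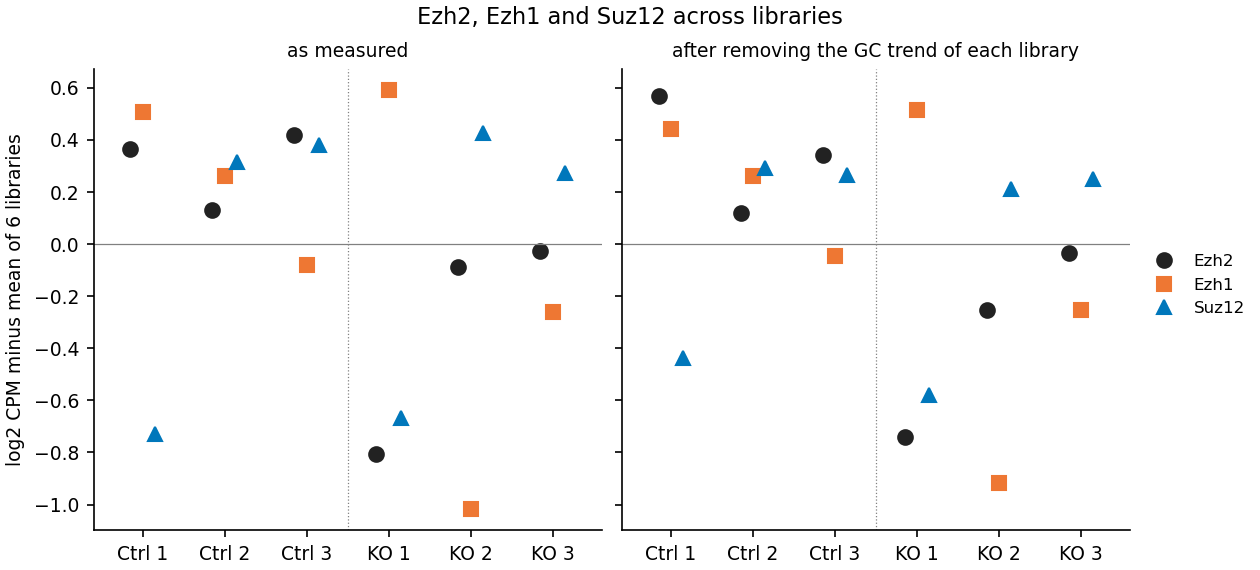
Log2 CPM of Ezh2, Ezh1 and Suz12 in each library minus the mean of the gene over the 6 libraries, as measured (left) and after removal of the GC trend of each library (right). Suz12 is low in Ctrl replicate 1 and Ezh2 KO replicate 1 in both panels, Ezh1 is lowest in Ezh2 KO replicate 2, and Ezh2 is below each Ctrl library in each Ezh2 KO library.

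Set against its non-catalytic partners in the same library, Ezh2 was lower in Ezh2 KO without overlap. Such a ratio does not depend on library scaling, but the GC trend still acts on it. Ezh2 alone already separated the groups, so the ratio is not separate support. The log2 ratio of Ezh2 to the geometric mean of Eed and Suz12, per exon length, was -1.38, -2.11 and -2.04 in Ctrl replicates 1 to 3. It was -2.53, -2.60 and -2.31 in Ezh2 KO replicates 1 to 3. The means were -1.84 ± 0.40 and -2.48 ± 0.15 (SD, n = 3), a difference of -0.64 with p = 0.1 (exact two-sided permutation test, the smallest value possible; adjusted p = 0.3 over 3 ratios). Each same-numbered pair went the same way, by -1.16, -0.49 and -0.27. Ctrl replicate 1, with its low Suz12, stood apart, and without it the difference was -0.41. Against Eed alone, a ratio chosen after seeing the data, the values were -2.16, -2.34 and -2.43 in Ctrl and -3.24, -2.99 and -2.63 in Ezh2 KO, again without overlap.

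Rbbp4 (ENSMUSG00000057236), one of the 2 histone-binding paralogs, held 145, 110 and 134 CPM in Ctrl replicates 1 to 3. In Ezh2 KO replicates 1 to 3 it held 156, 109 and 109 CPM. The groups overlapped, and replicate 1 was the highest library in each. The log2 fold change was -0.06 with a 95% interval of -0.50 to 0.39. Exons of Rbbp4 overlap those of Sync on the opposite strand, which held only 1.48 to 3.65 CPM.

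Rbbp7 (ENSMUSG00000031353), its X-linked paralog, was the most abundant gene of the core. It held 439, 496 and 545 CPM in Ctrl replicates 1 to 3. In Ezh2 KO replicates 1 to 3 it held 452, 632 and 462 CPM, and the groups overlapped. The log2 fold change was 0.06 with a 95% interval of -0.33 to 0.45. Its SD within groups, 0.22 on the log2 scale, went to 0.12 after removal of the GC trend, while that of Rbbp4 went from 0.26 to 0.34. Txlng, which overlaps it on the opposite strand, held 37.8 to 58.8 CPM, and without a stated strand setting a small part of the Rbbp7 reads may belong to it.

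Rbbp7 dominated its pair in every library. Per exon length it made up 90.1%, 93.1% and 92.4% of the 2 in Ctrl replicates 1 to 3, and in the same order 89.7%, 94.6% and 92.7% in Ezh2 KO. The mean difference of 0.45 percentage points was smaller than the SD of either group (exact two-sided permutation test, p = 0.9, adjusted p = 0.9 over 3 ratios).

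Levels per kilobase of exon placed the 6 genes in a wide order. In Ctrl the mean was 170 ± 18.1 CPM per kilobase for Rbbp7, 66.0 ± 9.55 for Eed and 36.1 ± 13.3 for Suz12 (SD, n = 3). Below them came Rbbp4 at 14.8 ± 2.05, Ezh2 at 13.2 ± 1.36 and Ezh1 at 5.67 ± 1.14 CPM per kilobase. Of neighbours in this order only Rbbp4 and Ezh2 had overlapping libraries in Ctrl (12.6 to 16.6 and 11.7 to 14.3 CPM per kilobase). Rbbp4 and Ezh2 thus did not differ beyond their spread, and with the length of the longest transcript they changed places (27.8 and 31.7 CPM per kilobase). With that length Suz12 in Ctrl replicate 1, at 23.4 CPM per kilobase, also lay under Rbbp4 (31.0) and Ezh2 (32.9) of the same library. By the same length Suz12 in Ezh2 KO replicate 1, at 24.4 CPM per kilobase, lay under Rbbp4 (33.4). In Ezh2 KO the mean was 14.2 ± 3.11 CPM per kilobase for Rbbp4, 8.88 ± 2.41 for Ezh2 and 4.50 ± 2.46 for Ezh1, and in Ezh2 KO replicate 1 Ezh2, at 6.10 CPM per kilobase, lay under Ezh1 at 7.18. By mean level per kilobase of all exons, the genes kept their order in both groups. These lengths come from GENCODE M21, a later annotation than that of the counts, so the order is approximate.

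**Figure D4:**
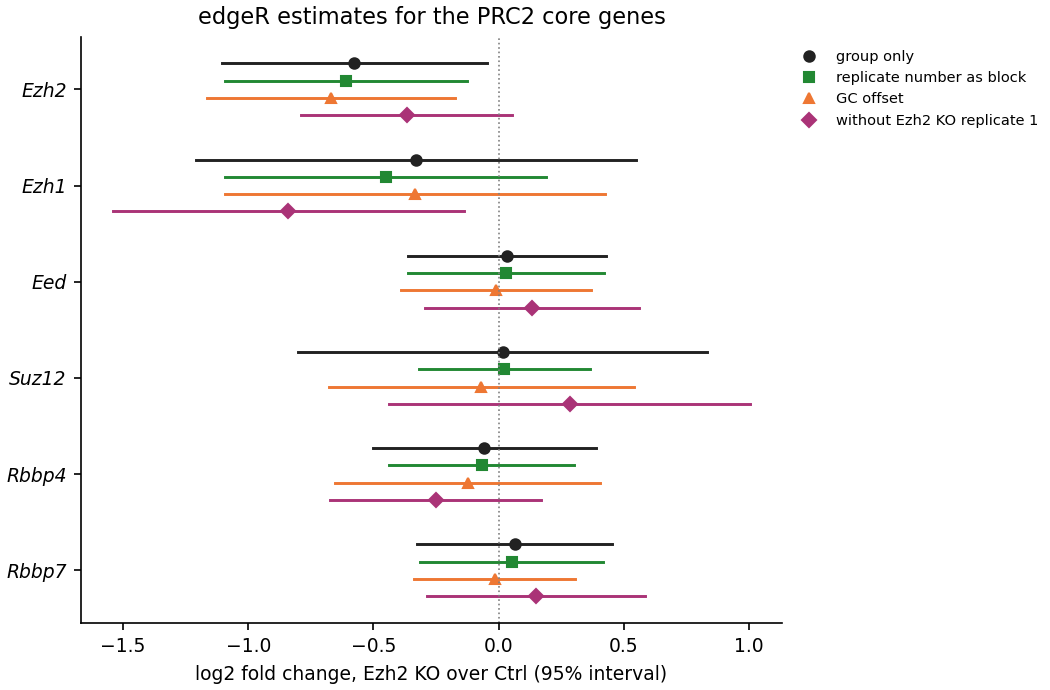
Log2 fold change of each PRC2 core gene, Ezh2 KO over Ctrl, with its 95% interval from edgeR under 4 settings: group only, replicate number as a block, an offset for GC content, and without Ezh2 KO replicate 1. Ezh2 has an interval below 0 in the first 3 and not in the last (-0.79 to 0.05), and the block narrows the interval of Suz12 most. The intervals of Ezh2 without Ctrl replicate 1 and without Ctrl replicate 3, not drawn, also reach above 0 (to 0.06 and 0.11).

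Genes whose pattern over the 6 libraries was closest to that of a member were found by the root mean square difference of centred log2 CPM among 9216 genes. For Ezh2 they were Hmgn5, a nucleosome-binding protein gene, at 0.14, and the zinc finger gene Zfp566 at 0.18, and only Hmgn5 came within 0.15. For Suz12 they were Slmap (0.06) and Nptn (0.08), with 32 genes within 0.15. Slmap, a membrane protein gene, held 22.5, 49.4 and 51.6 CPM in Ctrl and 25.4, 49.1 and 45.0 CPM in Ezh2 KO, so it was low in the same libraries. For Ezh1 they were the transporter gene Slc4a8 and the phospholipase gene Pnpla6 (both 0.06), with 126 genes within 0.15. Eed had 1279 genes within 0.15, the nearest being Glmn and Ndufaf1 (both 0.03). Rbbp7 had 1387, the nearest being Uqcrb and Commd6 (both 0.03). Rbbp4 had 501, the nearest being Gtf3a and Got1 (both 0.06). All these profiles share the same 6 libraries and their depth and GC trends. The difference is not scaled for how much a gene varies. Counts of near genes therefore depend on that spread, which was 0.22 for Rbbp7 and 0.61 for Suz12 (SD of log2 CPM within groups).

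Beside the core, 88 genes of 8 related lists were tested, and 0 of them passed the test. An unadjusted p under 0.05 was found for 0 of them in edgeR, 1 in limma-voom and 2 in DESeq2. Groups did not overlap, with Ezh2 KO lower, for 3 of the 88 (3.41%, against 4.03% of all tested genes). The median log2 fold change was -0.02 over the 6 core genes and 0.01 over all tested genes, of which 51.3% were positive. Under the GC offset 0 of the 6 core genes were positive (median -0.10), against 51.6% of all tested genes (median 0.01). Several of these core estimates lay near 0, with Eed at -0.010, Rbbp7 at -0.015 and Suz12 at -0.069, each smaller in size than its SE. With the replicate block 4 of the 88 had an unadjusted p under 0.05 in edgeR, 0.0133 for Phf1, 0.0346 for Cbx8, 0.0194 for Phc1 and 0.0474 for Kdm6b, with adjusted p-values of 0.466 to 0.544. All 4 were lower in Ezh2 KO; they are 4.55% of the 88, where 9.1% of all tested genes passed the same threshold in either direction and 3.12% with a lower level, so the share is near the background.

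Among accessory subunits, which steer PRC2 to its targets, 3 of 8 tested genes were positive, with a median of -0.03 that turned with single libraries (-0.18 without Ctrl replicate 1, 0.05 without Ezh2 KO replicate 2). Jarid2, the most abundant, held 331, 675 and 639 CPM in Ctrl and 669, 432 and 603 CPM in Ezh2 KO, and Mtf2 held 437, 419 and 433 CPM in Ctrl and 335, 451 and 328 CPM in Ezh2 KO. Phf1, a scarce paralog of Mtf2, had means of 2.44 ± 1.07 and 1.18 ± 0.715 CPM (SD, n = 3), with overlap. PRC1 is the partner complex, and only some of its forms read H3K27me3. Of 18 PRC1 genes, taken from all forms, 5 were positive (median -0.06), or 8 under the GC offset (median -0.13). With single libraries left out the PRC1 median ran from -0.13 (without Ctrl replicate 3) to -0.03 (without Ctrl replicate 2). Cbx8, a reader of the mark, was at 1.45 ± 0.198 and 0.777 ± 0.318 CPM without overlap, while the ubiquitin ligase gene Rnf2 held 116, 140 and 165 CPM in Ctrl against 177, 175 and 150.2 CPM in Ezh2 KO, and Phc1 was at 202 ± 50.6 and 148 ± 69.6 CPM (SD, n = 3). Of the demethylases that remove the mark, Kdm6a held 36.3 ± 14.0 and 39.8 ± 4.67 CPM and Kdm6b 25.9 ± 8.15 and 16.1 ± 5.50 CPM.

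The complexes that share Rbbp4 and Rbbp7 had mostly negative estimates. In NuRD, a remodeler with histone deacetylase activity, 1 of 11 genes was positive, with a median log2 fold change of -0.24. It was -0.08 without Ctrl replicate 1 or without Ezh2 KO replicate 2, the libraries at the ends of the GC trend. Under the GC offset 3 of the 11 were positive (median -0.19). Mta1 had means of 29.3 ± 2.68 and 21.3 ± 3.01 CPM, Ctrl first, without overlap, and the deacetylase gene Hdac1 of 715 ± 69.0 and 584 ± 63.9 CPM (SD, n = 3). In the Sin3 complex, another deacetylase complex, 2 of 12 were positive (median -0.18, and 4 of 12 with a median of -0.13 under the GC offset). The Sin3 median was -0.11 without Ctrl replicate 1, -0.06 without Ezh2 KO replicate 1 and -0.12 without Ezh2 KO replicate 2. In this list and the next, Ctrl again first, Sin3b was at 176 ± 17.7 and 157 ± 1.87 CPM and Sap18 at 208 ± 7.56 and 233 ± 30.3 CPM. Among 6 genes of chromatin assembly and remodeling the median was 0.00 (2 positive, and 0 under the GC offset; -0.08 without Ezh2 KO replicate 2 and 0.03 without Ctrl replicate 3), with Hat1 at 679 ± 76.4 and 678 ± 85.8 CPM, Chaf1a at 35.6 ± 5.24 and 28.8 ± 8.65 CPM, and the remodeler gene Bptf at 117 ± 2.76 and 100.2 ± 20.2 CPM without overlap.

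Ezh2 is known as a target of E2F factors. Of 11 E2F factors and pocket proteins 5 were positive (median -0.03, but 0.15 without Ezh2 KO replicate 1, 0.08 without Ctrl replicate 2 and -0.12 without Ezh2 KO replicate 3), with the repressor gene E2f7 at 13.2 ± 2.46 and 17.3 ± 5.11 CPM, Rbl1 at 33.3 ± 4.21 and 26.4 ± 4.95 CPM and E2f4 at 42.2 ± 14.0 and 36.8 ± 9.71 CPM. Of 20 DNA replication genes 11 were positive (median 0.02), or 7 under the GC offset (median -0.02). That median was -0.01 without Ctrl replicate 2 and 0.08 without Ezh2 KO replicate 3. Rrm2, a ribonucleotide reductase gene, had means of 1458 ± 70.7 and 1426 ± 109 CPM, the helicase gene Mcm4 of 419 ± 43.7 and 462 ± 28.9 CPM, and the polymerase gene Pola1 of 94.1 ± 38.1 and 122 ± 27.3 CPM (SD, n = 3). The summed replication genes ran from 6174 to 6907 CPM in Ctrl and from 6094 to 6974 CPM in Ezh2 KO. The range of Ezh2 KO thus enclosed that of Ctrl. Any link of E2F factors or replication genes to the level of Ezh2 was not tested.

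**Figure D5:**
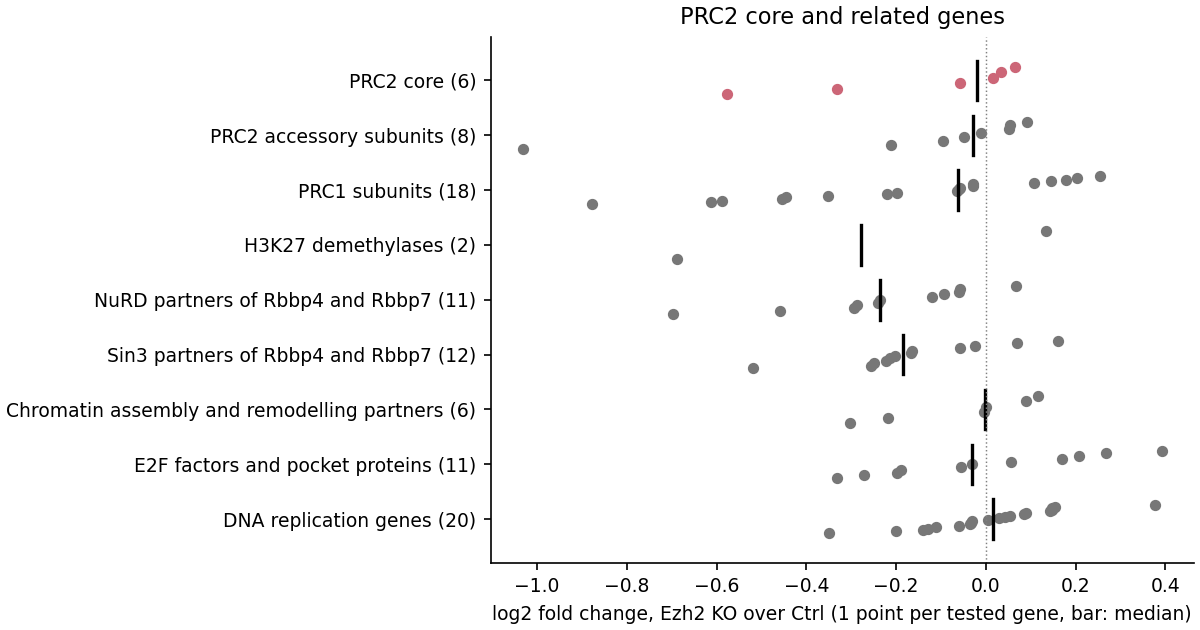
Log2 fold change, Ezh2 KO over Ctrl, of each tested gene in the PRC2 core and 8 related lists, with the number of genes in parentheses and the median as a bar. The core median is -0.02, and the NuRD and Sin3 lists have medians of -0.24 and -0.18.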

How the data were processed

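RNA of 3 Ctrl and 3 Ezh2 KO libraries was measured by RNA-seq. The authors deposited raw read counts for each Ensembl gene ID. Per the submitters' processing notes, the builds were NCBIM37 and mm9 and the tools featureCounts, TopHat2 2.0.11, Trimmomatic 0.33 and CASAVA 1.8.4; the sources used here give neither settings nor strand use. GENCODE M21 supplied symbols, exon lengths and GC content by gene ID, with 32938 IDs named and GC content known for 95.2% of tested genes.

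The 16420 genes kept by filterByExpr (minimum count 10) were scaled by TMM and tested with edgeR 4.0.16 (R 4.3.3, robust quasi-likelihood, group as the only term, two-sided, Benjamini-Hochberg over all of them, threshold 0.05). Log2 values use a prior count of 2. The fit was also run on simulated counts as a check of the code, which does not measure its power in these data. For the GC offset, loess (span 0.5) was fitted per library on genes of mean log2 CPM over 2. Levels per kilobase use the union of exons. Intervals are at 95% and cover the spread between libraries; counting error is the square root of the count. Exons of 5 of the 6 genes (all but Ezh1) overlap an opposite-strand gene in GENCODE M21.

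Same-numbered libraries deviated together from their group means (r across genes 0.58, 0.37 and 0.19), although Ctrl replicate 3 correlated more with Ezh2 KO replicate 2 (0.30). The number was therefore used as a block in alternatives only, and the main tests used group alone. Sample titles do not state pairs. The correlations were taken before removal of the GC trend, so a shared trend was not set apart from pairing. Alternatives were DESeq2 1.42.0 and its size factors, limma-voom (limma 3.58.1), no TMM, other filters, the block, the GC offset and left-out libraries. Members and lists were chosen with earlier results of these data known. Beside the 6 members, the genes named were the 2 of smallest p and the most abundant of each related list, and the 2 of most similar pattern to each member (mean log2 CPM of at least 3).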

Additional observations from a re-analysis of the deposited data

How the results depend on the processing

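No PRC2 core gene passed the threshold under any of the 18 alternatives. Ezh2 kept its direction in all of them (log2 fold change -0.71 to -0.34, the latter without both libraries numbered 1). Genes called numbered 0 in edgeR (459 at an unadjusted p under 0.05) and limma-voom (466), 0 with each library left out, 13 in DESeq2 and 50 in DESeq2 with the replicate block. In edgeR the replicate block gave 0 calls, with 1495 genes at an unadjusted p under 0.05, and a log2 fold change of -0.61 for Ezh2, and changed no call. Estimates near 0 changed sign, and the cause was not tested. Eed became -0.0024 without a filter, -0.010 under the GC offset and -0.012 with offset and block, and Suz12 -0.0017 in DESeq2, -0.023 without a filter, -0.069 under the offset and -0.079 with offset and block. Rbbp7 became -0.015 under the offset and -0.021 with offset and block. Without Ctrl replicate 1 and Ezh2 KO replicate 2, an alternative chosen after seeing the data like that without the libraries numbered 1 and DESeq2 with the block, Ezh1 was 0.12, Eed -0.14, Suz12 -0.46, Rbbp4 0.12 and Rbbp7 -0.18. With single libraries left out the ranges were -0.71 to -0.37 for Ezh2, -0.84 to -0.02 for Ezh1, -0.094 to 0.13 for Eed, -0.26 to 0.28 for Suz12, -0.25 to 0.040 for Rbbp4 and -0.10 to 0.15 for Rbbp7. The difference in the Ezh1 share ran from -6.73 to 10.8 percentage points (lowest without Ezh2 KO replicate 1), that of the Rbbp7 share from -0.68 to 1.76, and that of the log2 ratio of Ezh2 to Eed and Suz12 from -0.77 to -0.41. Pairing by number gave exact sign-flip p = 0.25 for the last, the smallest that 3 pairs allow.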
